A study of Mus musculus with 14 samples.

Results

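Thymic natural killer T (NKT) cells, sorted from young wild-type male mice, were compared between animals given dexamethasone 3 d before sacrifice and animals given vehicle for the same 3 d. The comparison uses 9 of the 14 libraries of the study, 4 from dexamethasone-treated and 5 from vehicle-treated mice, taken as the count columns that the labels assign to these groups. The remaining 5 libraries were taken 18 h after dexamethasone and enter here only as a shared estimate of the spread and as a side value for some genes. Per the labels, dexamethasone was injected into the peritoneum at 200 ug per 10 g body weight, the vehicle held 8% ethanol, and the vehicle mice were matched in age. RNA with poly(A) tails was sequenced by bulk MARS-seq, which reads the 3′ end of transcripts. Counts were compared between libraries for each gene. Sums over a list add counts and give no order of levels between genes. The labels name neither the markers of the NKT sort nor whether each replicate came from its own mouse, and p-values therefore measure the spread between these samples.

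NKT cells are T cells with a restricted antigen receptor that recognise lipids presented by the CD1d molecule and mature in the thymus under the transcription factor PLZF. They fall into subsets that resemble helper T cells: NKT1 cells make interferon gamma, NKT2 cells make interleukins 4 and 13, and NKT17 cells make interleukin 17. Dexamethasone is a synthetic glucocorticoid that kills most immature thymocytes, after which the thymus regrows, and the study concerns type 2 immunity in that regrowth. The glucocorticoid receptor binds DNA on ligand binding and switches on a well-known set of genes, including inhibitors of inflammation, of growth signalling and of its own activity.

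Total counts were 977037 to 2078540 in the vehicle libraries and 1070861 to 1517751 in the 3 d libraries, and 1 count was worth 0.507 to 1.11 CPM (counts per 1e+06 counts, scaled by the trimmed mean of M-values). On principal component 1 of the 500 most variable genes, which held 77.5% of the variance of the 9 libraries, vehicle lay at -24.5 to -10.4 and 3 d at 21.3 to 29.0. Vehicle replicate 3 was the library at -10.4, and the other vehicle libraries lay at -24.5 to -22.1. Among genes called higher at 3 d, vehicle replicate 3 was the highest vehicle library for 65.4%, and among genes called lower it was the lowest for 64.3%. This library was kept, and leaving it out raised the number of calls. Of the 18 h libraries, which share the fit, Cd8b1 reached 1008 CPM at the highest and 9.43 CPM at the lowest. The sorted cells carried the T cell receptor subunits Cd3g (454 CPM in either group on average) and Cd3d (966 ± 144 CPM in vehicle and 623 ± 60.5 CPM at 3 d, SD), the cytokine receptor Il2rb of NKT cells (672 ± 157 and 945 ± 94.5 CPM) and Zbtb16, which encodes PLZF.

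At 3 d, 2064 of 7965 tested genes differed from vehicle (25.9%), 964 of them higher (12.1%) and 1100 lower (13.8%). At least 2-fold changes numbered 446 higher and 470 lower, and at least 4-fold changes 56 higher and 164 lower. The 4 libraries at 3 d did not overlap with the 5 vehicle libraries for 1717 genes (21.6%), 744 higher (9.34%) and 973 lower (12.2%). The median log2 fold change over all genes tested was 0.03. Several lists described below had 14.3 to 31.6% of their tested members called, near or below the 25.9% of all genes, and their counts are not results about those lists: the receptor and its chaperones, inhibitors of growth signalling, interferon gamma GTPases, MHC class I, NKT1, type 1 effectors, repair factors, cytokine receptors, inhibitory and costimulatory receptors, apoptosis, sterol and lipid handling, ribosomal proteins, ribosome biogenesis, trafficking, conventional T cells and macrophages. Genes were called at an adjusted p below 0.05, by edgeR's quasi-likelihood test and the Benjamini-Hochberg adjustment over all genes tested. Of the same genes, 2078 passed this threshold in the authors' deposited table, 958 higher and 1120 lower at 3 d. The calls common to both had the same direction, 2005 genes in all, which is 97.1% of the edgeR calls and 96.5% of the authors' calls. Below, a value with ± after a gene is its log2 fold change of 3 d over vehicle with the standard error (5 vehicle and 4 dexamethasone libraries), and library values are CPM in the order of the replicates.

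**Figure D1:**
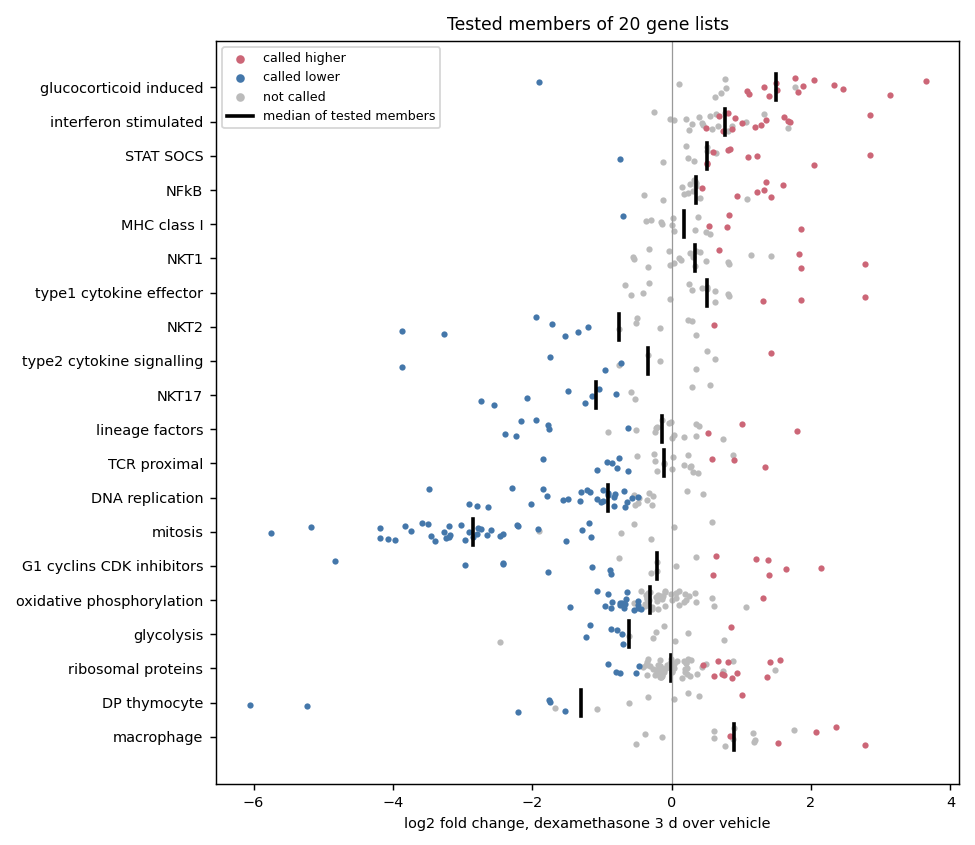
Log2 fold change of 3 d over vehicle for each tested member of 20 gene lists, with members called higher in red, called lower in blue and not called in grey, and the list median as a black bar. Mitosis genes lie furthest to the left by median, with a median of -2.85, and glucocorticoid-induced genes furthest to the right by median, with a median of 1.50.

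Most glucocorticoid-induced genes were still higher than vehicle at 3 d. Of 21 tested glucocorticoid-induced genes 14 rose, 6 were not called and 1 fell, and the list median was 1.50. Some of the higher genes are counted again below, Pik3ip1 and Ddit4 with inhibitors of growth signalling, Nfkbia with NF-kB and Cxcr4 with trafficking. Il7r is counted again with cytokine receptors, pro-survival genes and conventional T cells. Tsc22d3, whose product GILZ restrains inflammatory transcription (chromosome X, 140539528 to 140600659, mm10), stood at 22.3, 24.4, 37.1, 28.7 and 42.4 CPM in the vehicle libraries and at 371, 339.5, 427 and 419 CPM at 3 d. Each of the 3 d libraries was far above each vehicle library, and the gene rose by 3.64 ± 0.29 (adjusted p = 2.1e-07). Fkbp5, a co-chaperone that lowers the affinity of the receptor for its ligand (chromosome 17, 28399094 to 28517527), went from 52.3, 43.3, 66.1, 42.0 and 48.6 CPM to 152, 239, 169 and 160.5 CPM. The groups were apart here too, with replicate 2 highest at 3 d (1.82 ± 0.19, adjusted p = 9.3e-07). Klf9, a zinc finger transcription factor, rose by 2.46 ± 0.42 (adjusted p = 0.00059) and Nfkbia, the inhibitor that holds NF-kB in the cytoplasm, by 1.32 ± 0.21 (adjusted p = 0.00013). The exception in direction was Tmem163, a zinc transporter gene named here after its value was seen (-1.91 ± 0.34, adjusted p = 0.00038). Set beside the 18 h libraries against the same vehicle libraries, Tsc22d3 stood at 3.64 ± 0.29 at 3 d and 3.63 at 18 h, and Fkbp5 at 1.82 ± 0.19 and 3.21. Tested directly between the times, Fkbp5 was lower at 3 d than at 18 h (-1.39 ± 0.18, adjusted p = 2.6e-05) and Tsc22d3 was not called (0.01 ± 0.26, adjusted p = 0.98).

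Genes of the receptor and its chaperones were mostly not called. Nr3c1, the glucocorticoid receptor gene itself, stood at 62.9, 77.8, 98.1, 68.5 and 92.5 CPM in vehicle and at 116, 85.3, 102 and 118 CPM at 3 d. The ranges overlapped and the gene was not called (0.41 ± 0.21, adjusted p = 0.16). Of the 11 tested members of this list 9 were not called, with a median of 0.27. The lower one was Fkbp4, a co-chaperone that favours receptor transport to the nucleus (-0.59 ± 0.17, adjusted p = 0.013), and the higher one Ncoa2, a coactivator of nuclear receptors (1.17 ± 0.42, adjusted p = 0.046). Ncoa2 overlapped between the groups and lost its call when any 1 of 7 of the 9 libraries was left out, for example without vehicle replicate 1 (1.10, adjusted p = 0.097). Without vehicle replicate 3, 2 members were called higher. Among inhibitors of growth signalling through phosphoinositide 3-kinase and mTOR, 2 of 8 tested genes rose and none fell (25.0% called, against 25.9% of all genes). Pik3ip1, which binds and inhibits that kinase (chromosome 11, 3330401 to 3342971), went from 31.5, 12.2, 37.6, 32.0 and 26.2 CPM to 122, 155, 146 and 157 CPM (2.32 ± 0.20, adjusted p = 7.8e-08). The vehicle libraries stayed below every 3 d library by a wide margin. Ddit4, which inhibits mTOR complex 1, rose by 1.11 ± 0.16 (adjusted p = 4e-05). Both Pik3ip1 and Ddit4 are also on the glucocorticoid-induced list.

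**Figure D2:**
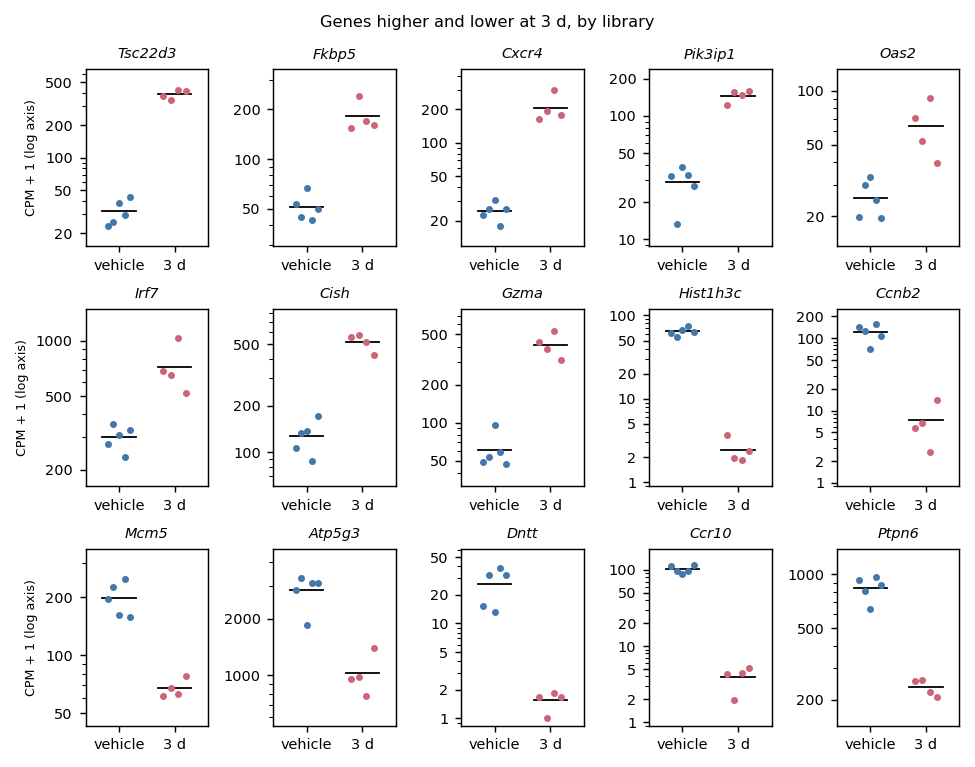
CPM plus 1 on a log axis for 15 genes in the 5 vehicle libraries (blue) and the 4 libraries at 3 d (red), with the group mean as a black bar. The first 8 genes lie higher at 3 d in every library and the last 7 lower in every library.

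Interferon-stimulated genes were higher at 3 d in part. Interferons signal through STAT transcription factors to induce antiviral genes, and 14 of the 33 tested genes of this list rose, 19 were not called and none fell (median 0.77). Irf7, a regulator of interferon production (chromosome 7, 141262706 to 141266481), went from 275, 351, 307, 233 and 329 CPM to 687, 654, 1038 and 518 CPM. The groups did not overlap and the 3 d replicate 3 was the highest (1.28 ± 0.19, adjusted p = 6.4e-05). Oas2, of the antiviral oligoadenylate synthetases (chromosome 5, 120730333 to 120749853), stood at 18.8, 28.9, 32.0, 23.7 and 18.5 CPM in vehicle and at 69.8, 51.2, 90.6 and 38.6 CPM at 3 d. Its groups were apart as well, with replicate 3 highest and replicate 4 lowest at 3 d (1.36 ± 0.23, adjusted p = 0.00028). Isg20, an exonuclease, rose by 1.02 ± 0.19 (adjusted p = 0.00068). Slfn5, a Schlafen family gene induced by interferon, rose by 2.62 ± 0.56 (adjusted p = 0.0032), with 15.9, 13.3, 72.0 and 13.8 CPM at 3 d, and by 1.64 (adjusted p = 0.004) without the 3 d replicate 3. The count of higher interferon-stimulated genes was 9 without the 3 d replicate 3 and 19 without vehicle replicate 3. The summed level of the list was 10440 to 15220 CPM at 18 h, against 2626 to 3485 CPM in vehicle and 3776 to 6842 CPM at 3 d.

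Bst2, a surface protein that tethers budding virus particles to the cell (chromosome 8, 71534255 to 71537456), stood at 381, 387, 456, 332 and 355 CPM in vehicle and 642, 575, 823 and 518 CPM at 3 d (0.74 ± 0.18, adjusted p = 0.0048). The groups were apart, and the vehicle library closest to 3 d was replicate 3. Its promoter is shown because it holds the interferon-stimulated response element on its opposite strand, as overlapping matches; the element was searched on both strands as TTTC, any 2 bases and TTTC. The window runs from 250 bases before to 50 bases after the RefSeq start (chr8:71537423-71537722, minus strand, GRCm38.p6), and capitals mark the match.
Bst2: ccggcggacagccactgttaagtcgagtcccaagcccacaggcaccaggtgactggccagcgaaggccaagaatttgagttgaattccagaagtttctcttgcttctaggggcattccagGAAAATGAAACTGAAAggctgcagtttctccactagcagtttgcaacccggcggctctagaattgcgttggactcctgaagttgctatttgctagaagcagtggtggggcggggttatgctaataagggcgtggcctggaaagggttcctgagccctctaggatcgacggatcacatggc
Of the 14 higher interferon-stimulated genes 7 had a RefSeq promoter window, 9 windows in all, of which 4 held the element (44.4%). The element was in 3.43% of all 32817 mouse windows. Windows of the members not called were not searched as a group, so the share cannot be tied to the rise.

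Of the STAT and SOCS genes, which carry cytokine signals and feed back on them, 9 of 17 tested rose and 1 fell, Pim2 (median 0.51). Cish, an inhibitor induced by STAT5 downstream of interleukins 2 and 7 (chromosome 9, 107296026 to 107302784), went from 105, 132, 136, 87.2 and 169.6 CPM to 554, 577, 513 and 428 CPM. The lowest 3 d library was well above the highest vehicle library (2.04 ± 0.17, adjusted p = 6e-08). Stat5b rose by 0.83 ± 0.20 (adjusted p = 0.0054) and Socs3, which limits interleukin 6 signals, by 1.22 ± 0.20 (adjusted p = 0.00014). The count of higher members was 5 without vehicle replicates 4 or 5 or the 3 d replicates 1 or 3. The call of Pim2, a survival kinase named here after its value was seen (-0.75 ± 0.27, adjusted p = 0.047), was lost without any library of the 9 but the 3 d replicate 4. Of the cytokine receptor genes 4 of 20 tested rose and 2 fell, and in the fit of the 9 libraries alone 8 rose and 4 fell. Il7r, the receptor for the survival cytokine interleukin 7 (chromosome 15, 9505788 to 9530176), went from 115, 118, 144, 94.4 and 134 CPM to 264, 159, 314 and 284 CPM. Its groups were apart, with the 3 d replicate 2 nearest to vehicle (1.08 ± 0.27, adjusted p = 0.0084). Ifngr1, a subunit of the interferon gamma receptor, rose by 1.47 ± 0.35 (adjusted p = 0.0078). Il2rg, the receptor chain shared by several interleukins, was lower (-0.73 ± 0.19, adjusted p = 0.0069), as was Il6ra, the interleukin 6 receptor (-1.20 ± 0.25, adjusted p = 0.0016).

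Antigen presentation genes of MHC class I were mixed, with 4 of 16 tested higher, 1 lower and a median of 0.18. The nonclassical class I genes H2-Q4 (1.85 ± 0.37, adjusted p = 0.0017) and H2-T23 (0.79 ± 0.20, adjusted p = 0.0076) were higher, although reads of such near-identical genes may be shared between them. Tapbp, which encodes tapasin, the protein that loads peptide onto class I molecules (chromosome 17, 33915899 to 33929292), stood at 598, 651, 487, 649 and 667 CPM in vehicle and at 357, 403, 368 and 373 CPM at 3 d. Every 3 d library was below every vehicle library (-0.70 ± 0.14, adjusted p = 0.0014), while the tapasin-related Tapbpl was higher (0.82 ± 0.20, adjusted p = 0.0048). Of the 13 tested interferon gamma-induced GTPases and their regulators, Irf1 rose (0.75 ± 0.17, adjusted p = 0.0025) and 10 were not called. The guanylate-binding protein genes Gbp8 (-0.44 ± 0.16, adjusted p = 0.045) and Gbp9 (-0.77 ± 0.22, adjusted p = 0.014) fell, with overlapping libraries. The Gbp9 call was lost without the 3 d replicate 2 (-0.61, adjusted p = 0.052), and the Gbp8 call without vehicle replicates 1, 2 or 5 or the 3 d replicates 2, 3 or 4 (adjusted p of 0.060 to 0.12). Cd1d1, which encodes the molecule that presents lipids to NKT cells, was not called (0.48 ± 0.23, adjusted p = 0.13). Without vehicle replicate 3 the counts were 7 higher and 2 lower for MHC class I and 4 higher for the GTPases, and in the fit of the 9 libraries alone 1 GTPase gene was lower.

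A small number of type 1 effector genes was much higher at 3 d, while the NKT1 regulator was not called. Ccl5, which encodes a chemokine made by effector T and NK cells (chromosome 11, 83525778 to 83530518), stood at 1097, 1131, 1077, 1079 and 1483 CPM in vehicle and at 4174, 3750, 4581 and 4501 CPM at 3 d. The 3 d libraries were several times above vehicle and vehicle replicate 5 was the highest of its group (1.86 ± 0.28, adjusted p = 0.00018). Gzma, the cytotoxic protease granzyme A (chromosome 13, 113093825 to 113100981), went from 47.7, 52.2, 94.6, 58.0 and 46.3 CPM to 436, 379, 526 and 309 CPM. The highest vehicle library, replicate 3, was far below 3 d (2.77 ± 0.40, adjusted p = 0.00029). Ccl4, a chemokine for T cells and macrophages, rose by 1.31 ± 0.35 (adjusted p = 0.0098), with its lowest 3 d library just inside the vehicle range. Those were the called members among 17 tested genes of type 1 cytokines and effectors (3 higher, none lower, median 0.50), and 5 were higher without vehicle replicate 3. In the fit of the 9 libraries alone 6 were higher and 2 lower.

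Ifng, which encodes interferon gamma (chromosome 10, 118441046 to 118445892), stood at 131, 129, 160.2, 114 and 138 CPM in vehicle and at 239, 212, 241 and 248 CPM at 3 d. No library of one group reached the other, yet the gene was not called in the fit that shares its spread with the 18 h libraries (0.81 ± 0.34, adjusted p = 0.091). In a fit of the 9 libraries alone it was called (0.81 ± 0.14, adjusted p = 0.00021). Tbx21 (chromosome 11, 97098071 to 97115331), which encodes the master factor T-bet, with 174, 157, 200.3, 216 and 206 CPM in vehicle and 192, 309, 296 and 176 CPM at 3 d, was not called (0.35 ± 0.38, adjusted p = 0.53), with the 3 d replicates 2 and 3 above the vehicle range and replicates 1 and 4 inside it. Of the 23 tested NKT1 genes 4 rose, none fell and the median was 0.34. Beside Ccl5 and Gzma the higher members were Klre1, an NK cell lectin receptor (1.82 ± 0.54, adjusted p = 0.022), and Txk, a kinase of the T cell receptor pathway (0.68 ± 0.23, adjusted p = 0.032), both with overlapping libraries. Their calls were lost without the 3 d replicate 3 (1.22, adjusted p = 0.098 for Klre1 and 0.475, adjusted p = 0.16 for Txk). They were also lost without vehicle replicates 1, 4 or 5, and that of Txk further without vehicle replicate 2 or the 3 d replicates 1 or 4. In the fit of the 9 libraries alone, 9 NKT1 genes were called higher.

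**Figure D3:**
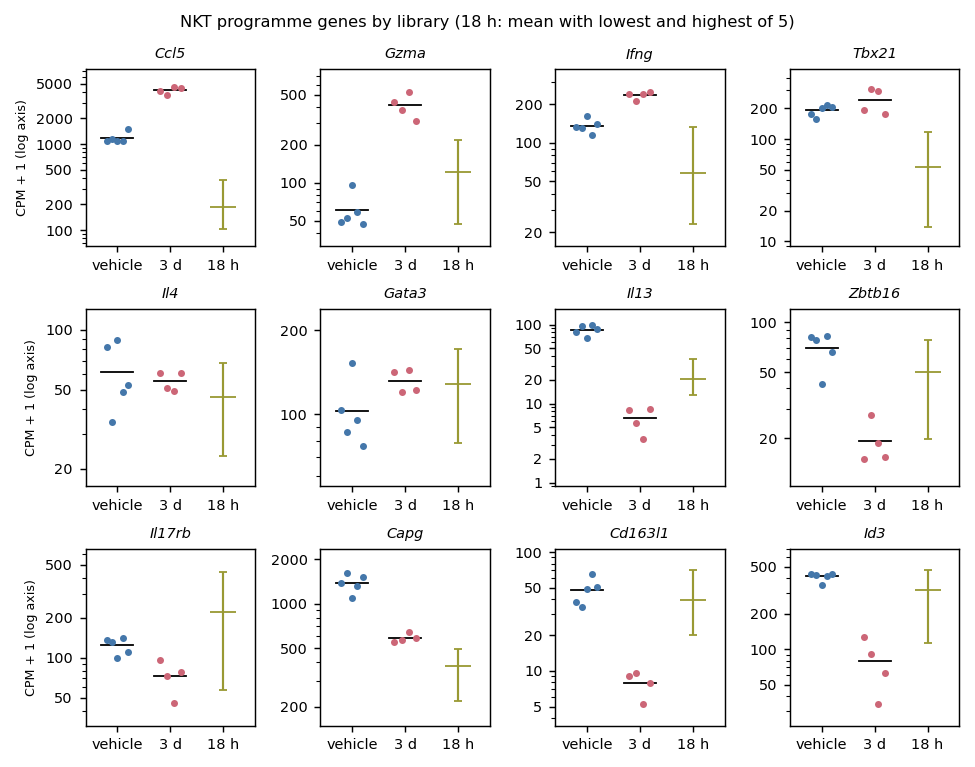
CPM plus 1 on a log axis for 12 genes of the NKT subsets in the 5 vehicle libraries (blue) and the 4 libraries at 3 d (red) with group means, beside the mean, lowest and highest of the 5 libraries at 18 h (olive). Ccl5 is lower than vehicle at 18 h and higher at 3 d, Il13 and Zbtb16 are lowest at 3 d, and Il4 overlaps between the groups.

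Type 2 genes split, with interleukin 13 lower and interleukin 4 not called. Il13 (chromosome 11, 53631324 to 53634702) stood at 79.7, 95.6, 66.6, 98.8 and 86.3 CPM in vehicle and at 7.31, 4.74, 2.54 and 7.58 CPM at 3 d. The highest 3 d library was far below the lowest vehicle library (-3.88 ± 0.32, adjusted p = 5.5e-08). Il4, its neighbour on the chromosome (chromosome 11, 53602982 to 53618669), stood at 80.7, 33.3, 88.5, 47.5 and 51.6 CPM in vehicle and 59.8, 50.3, 48.3 and 59.9 CPM at 3 d. The 3 d libraries fell inside the vehicle range (-0.17 ± 0.28, adjusted p = 0.69), and the small difference changed sign without vehicle replicate 3 (0.01, adjusted p = 0.98). Gata3, the regulator of type 2 identity (chromosome 2, 9857078 to 9890034), with 102, 85.6, 152, 94.4 and 75.5 CPM and 140.2, 118, 143 and 121 CPM, was not called (0.35 ± 0.21, adjusted p = 0.24). The highest Gata3 value of the 9 libraries was that of vehicle replicate 3, and without it the gene was called higher (0.54, adjusted p = 0.043). Of the 11 tested type 2 cytokine and signalling genes 4 fell, 1 rose and the median was -0.34.

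Receptors for epithelial alarm cytokines belong to that group. Il17rb, a receptor subunit for interleukin 25, the cytokine made by tuft cells (chromosome 14, 29996135 to 30008896), stood at 134, 130, 99.2, 141 and 109.5 CPM in vehicle and at 95.7, 72.1, 44.9 and 76.5 CPM at 3 d. The 3 d libraries were all below vehicle, but the gene was not called in the shared fit (-0.76 ± 0.43, adjusted p = 0.21) and was called in the fit of the 9 libraries alone (-0.75 ± 0.19, adjusted p = 0.005). In the 18 h libraries it spread from 55.6 to 443 CPM. Crlf2, a receptor subunit for thymic stromal lymphopoietin (chromosome 5, 109554709 to 109558993), went from 395, 399, 324, 423 and 336 CPM to 167, 224, 123 and 257 CPM. The groups were apart, with the 3 d replicate 4 highest of its group (-0.96 ± 0.18, adjusted p = 0.00059). Irf4, a factor needed for type 2 and effector differentiation, fell by 1.75 ± 0.35 (adjusted p = 0.001). The higher member was Nfil3, a basic leucine zipper factor named here after its value was seen (1.43 ± 0.47, adjusted p = 0.037), a call lost without vehicle replicates 1 or 4 or the 3 d replicates 1 or 3. In the fit of the 9 libraries alone 2 type 2 genes were higher. Il4ra, the receptor for interleukins 4 and 13, was low in both groups and not called (0.62 ± 0.42, adjusted p = 0.29). Areg, the tissue repair factor amphiregulin, was not tested, with 1 vehicle and 1 treated library above 0. Among 7 tested repair and growth factor genes, Vegfb (-0.74 ± 0.21, adjusted p = 0.012) and Tnfsf11, which encodes the cytokine RANKL (-1.50 ± 0.54, adjusted p = 0.045), fell. Both calls were lost without the 3 d replicate 3 (adjusted p = 0.054 and 0.13), and that of Tnfsf11 also without vehicle replicates 1 or 2 (0.050 and 0.051) and without the 3 d replicates 2 or 4 (0.11 and 0.066). In the fit of the 9 libraries alone 1 repair gene was lower.

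Many genes of NKT2 and NKT17 identity were lower. Of 15 tested NKT2 genes 7 fell and 1 rose (median -0.76), and of 12 tested NKT17 genes 8 fell and none rose (median -1.09). Zbtb16, the gene for PLZF (chromosome 9, 48654297 to 48836222), stood at 80.7, 76.7, 41.7, 81.7 and 64.8 CPM in vehicle and at 13.9, 26.6, 17.8 and 14.5 CPM at 3 d. The lowest vehicle library, replicate 3, was above all 3 d libraries (-1.94 ± 0.34, adjusted p = 0.00051). Hivep3, a zinc finger gene known from innate-like T cell development (chromosome 4, 119733784 to 120138045), went from 99.97, 62.2, 52.4, 124 and 90.2 CPM to 14.6, 3.79, 7.62 and 8.27 CPM. All vehicle libraries were above all 3 d libraries (-3.27 ± 0.32, adjusted p = 5e-07). The costimulatory receptor Icos fell by 1.35 ± 0.23 (adjusted p = 0.00027) and the coreceptor Cd4 by 1.54 ± 0.30 (adjusted p = 0.0015). The member that rose was Itgb7, an integrin subunit for homing to the gut (0.61 ± 0.13, adjusted p = 0.0021).

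Among NKT17 genes, Cd163l1, a scavenger receptor of interleukin 17-making lymphocytes (chromosome 7, 140218267 to 140231145), stood at 37.0, 33.3, 47.8, 64.0 and 50.1 CPM in vehicle and at 7.97, 8.54, 4.24 and 6.89 CPM at 3 d. The groups were far apart (-2.74 ± 0.37, adjusted p = 2.7e-05). Capg, an actin-capping protein (chromosome 6, 72544391 to 72562983), went from 1385, 1600, 1083, 1313 and 1520 CPM to 546, 566, 638 and 581 CPM with a narrow spread at 3 d (-1.24 ± 0.19, adjusted p = 7.2e-05). The calcium-binding protein genes S100a4 and S100a6 fell by 1.49 ± 0.33 (adjusted p = 0.0043) and 1.04 ± 0.28 (adjusted p = 0.013). Of the 12 tested members 2 had a fold change above 0, Tmem176a and Tmem176b, named here after their values were seen. Neither was called, although Tmem176b was at 45.3 to 93.3 CPM in vehicle and 101.6 to 110.9 CPM at 3 d. The type 17 genes Il17a, Il1r1 and Ccr6 were not tested, and Il17f and Il23r had no counts listed. The number of lower NKT17 genes was 5 without vehicle replicates 1 or 4, and in the fit of the 9 libraries alone 1 member was higher.

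Of 25 tested lineage factors 7 fell, 3 rose and 15 were not called (median -0.14). Id3, an inhibitor of E proteins that sets how many NKT cells form (chromosome 4, 136143497 to 136145755), stood at 434, 424, 349, 416 and 436 CPM in vehicle and at 127, 90.1, 33.0 and 62.0 CPM at 3 d. All vehicle libraries held more than every 3 d library, and the 3 d replicate 3 held the least (-2.39 ± 0.39, adjusted p = 0.00068). Tox, a nuclear factor of early T cell and NKT development, fell by 2.17 ± 0.37 (adjusted p = 6e-04) and Sox4, which acts in early NKT development, by 1.78 ± 0.36 (adjusted p = 0.0016). Klf2, a factor of mature and quiescent T cells that directs exit from the thymus (chromosome 8, 72319033 to 72321656), went from 41.1, 93.3, 160.2, 84.5 and 77.9 CPM to 316, 331, 329 and 295 CPM. Its vehicle values were widely spread, with replicate 1 lowest and replicate 3 highest, and did not reach the narrow 3 d range (1.79 ± 0.42, adjusted p = 0.0069). The number of higher lineage factors was 1 without the 3 d replicate 1.

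Genes of T cell receptor signalling moved in both directions, with 7 of 25 tested lower and 3 higher (median -0.11). Cd3e, a signalling subunit of the receptor (chromosome 9, 44998740 to 45009627), stood at 614, 760.1, 395, 664 and 769 CPM in vehicle and 347, 218, 299.8 and 349 CPM at 3 d. The groups were apart, by a small margin at vehicle replicate 3 (-1.07 ± 0.19, adjusted p = 0.00036). Ptpn6, the phosphatase SHP-1 that limits receptor signals (chromosome 6, 124720707 to 124738714), went from 929, 804, 638, 967 and 869.6 CPM to 253, 258, 220.2 and 205 CPM. No 3 d library was near the vehicle range (-1.85 ± 0.21, adjusted p = 2.7e-06). Cd5, a surface protein that tracks receptor signal strength, fell by 0.79 ± 0.17 (adjusted p = 0.0015), while Fyn, a kinase needed for NKT development, rose by 1.33 ± 0.28 (adjusted p = 0.0019). The count of lower members was 4 without the 3 d replicates 2 or 3, and that of higher members 1 without the 3 d replicate 4. Of 24 tested immediate early and activation genes 7 rose and 5 fell (median 0.60), and 11 rose in the fit of the 9 libraries alone. The stress-induced factor Atf3 rose by 1.79 ± 0.35 (adjusted p = 0.001), and Myc, which drives cell growth (chromosome 15, 61985391 to 61990374), fell from 189, 250, 164, 220.2 and 263 CPM to 110.3, 99.6, 95.7 and 159 CPM, groups that nearly met at vehicle replicate 3 and the 3 d replicate 4 (-0.89 ± 0.19, adjusted p = 0.0016). Among 14 inhibitory and costimulatory receptors, Ctla4 rose from 2.54, 1.11, 1.52, 1.10 and 2.31 CPM to 9.97, 10.4, 27.1 and 13.8 CPM (3.05 ± 0.49, adjusted p = 0.00017). Tnfrsf18, the receptor GITR, rose by 0.57 ± 0.18 (adjusted p = 0.02), a call lost without vehicle replicate 4 (adjusted p = 0.052) or the 3 d replicate 2 (adjusted p = 0.059). In the fit of the 9 libraries alone 2 of these receptors were lower, against 1 in the shared fit.

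Targets and inhibitors of NF-kB, the inflammatory transcription factor, were higher in 7 of 20 tested and lower in none (median 0.35). Tnfaip3, which encodes the NF-kB inhibitor A20 (chromosome 10, 19000910 to 19015657), stood at 346, 332, 227, 209.8 and 254 CPM in vehicle and 599.9, 579, 646 and 967 CPM at 3 d. The 3 d replicate 4 was the highest and no library crossed to the other group (1.35 ± 0.19, adjusted p = 3.6e-05). Nfkb1, a subunit of the factor, rose by 1.22 ± 0.24 (adjusted p = 0.00097). Birc3, an inhibitor of apoptosis induced by NF-kB, rose by 1.42 ± 0.29 (adjusted p = 0.0014) and Cflar, which blocks caspase 8, by 0.94 ± 0.21 (adjusted p = 0.0021). Of 17 tested pro-survival genes 5 rose and 2 fell (median 0.42). Birc2, a relative of Birc3, rose by 0.94 ± 0.21 (adjusted p = 0.003), as did the anti-apoptotic gene Bcl2, named here after its value was seen (1.56 ± 0.33, adjusted p = 0.0031). The lower ones were Birc5, described with mitosis, and Pim2. Of the 18 tested apoptosis genes 1 rose, 2 fell and 15 were not called. Bbc3, which encodes the pro-apoptotic protein PUMA (chromosome 7, 16308393 to 16318205), went from 29.4, 36.7, 55.9, 38.1 and 49.3 CPM to 97.0, 133, 95.7 and 185 CPM. Its 3 d libraries all lay above vehicle, with replicate 4 highest and replicate 3 lowest (1.60 ± 0.21, adjusted p = 1.7e-05). Diablo, which releases caspases from their inhibitors, was called lower (-0.46 ± 0.17, adjusted p = 0.041). That call held with all libraries and without vehicle replicate 3 or the 3 d replicate 4, and was lost without any other of the 9 libraries (adjusted p of 0.072 to 0.1). Without vehicle replicate 3 or the 3 d replicate 2, and in the fit of the 9 libraries alone, 2 apoptosis genes were higher.

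Genes of the dividing cell were lower at 3 d. Replication-dependent histones supply the nucleosomes of newly copied DNA, and of 40 tested histone genes with names beginning in Hist 38 fell, 2 were not called and none rose (median -3.70). This family was chosen after its values were seen. Its summed level was 1109 to 1344 CPM in vehicle and 133 to 171 CPM at 3 d. Hist1h3c, a histone H3 gene (chromosome 13, 23744973 to 23745602), stood at 60.9, 54.5, 65.6, 73.4 and 62.5 CPM in vehicle and 2.66, 0.948, 0.847 and 1.38 CPM at 3 d (-5.30 ± 0.40, adjusted p = 2.5e-08). The vehicle libraries were within a narrow band and the 3 d libraries near the limit of 1 to 4 counts. Hist1h2ab (-5.45 ± 0.44, adjusted p = 5.5e-08) and Hist1h2ag (-4.72 ± 0.39, adjusted p = 5.5e-08), both histone H2A genes, were as far down, and Hist1h3i, Hist1h2bk, Hist1h2an, Hist1h2bm and Hist1h2bj fell by 4.61 to 6.38. Most messages of this class end in a stem-loop in place of a poly(A) tail, so poly(A) libraries capture only part of them, and near-identical copies can share reads. Of 8 tested histone genes named H1f, H2af or H3f, 1 fell and 7 were not called (median 0.07).

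DNA replication genes fell in 28 of 38 tested and rose in none, with a median of -0.92. Mcm5, a subunit of the replicative helicase (chromosome 8, 75109569 to 75128439), stood at 194, 226, 159.7, 249 and 156 CPM in vehicle and at 60.5, 66.4, 61.8 and 77.1 CPM at 3 d. The lowest vehicle library held more than the highest 3 d library (-1.56 ± 0.17, adjusted p = 1.3e-06). Rrm2, the ribonucleotide reductase subunit that limits nucleotide supply in S phase (chromosome 12, 24708241 to 24714146), went from 57.4, 48.9, 35.6, 67.9 and 40.1 CPM to 1.99, 4.74, 0.847 and 9.64 CPM. The 3 d replicate 4 was the highest of its group and far below vehicle (-3.48 ± 0.39, adjusted p = 2.9e-06). Tk1, thymidine kinase, fell by 1.85 ± 0.23 (adjusted p = 6.7e-06) and Chaf1a, which deposits histones behind the fork, by 2.80 ± 0.32 (adjusted p = 2.6e-06).

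Mitosis genes fell in 35 of 41 tested and rose in none, with a median of -2.85. Ccnb2, a B-type cyclin that drives entry into mitosis (chromosome 9, 70407692 to 70421547), stood at 142, 124, 70.7, 155 and 108 CPM in vehicle and at 4.65, 5.69, 1.69 and 13.1 CPM at 3 d. The lowest vehicle library was replicate 3 and the highest 3 d library replicate 4, and they did not meet (-4.19 ± 0.49, adjusted p = 2.5e-05). Prc1, which bundles the microtubules of the spindle midzone (chromosome 7, 80294450 to 80316259), went from 34.0, 12.2, 20.3, 33.1 and 16.2 CPM to 0.664, 0, 0.847 and 0.689 CPM (-5.17 ± 0.66, adjusted p = 1.6e-05). No 3 d library held more than 1 count of it. Birc5, survivin of the chromosomal passenger complex (chromosome 11, 117849251 to 117855743), went from 84.2, 68.9, 69.2, 81.1 and 60.1 CPM to 3.99, 0.948, 5.08 and 7.58 CPM (-3.97 ± 0.39, adjusted p = 6.9e-07). Aurkb, the kinase of that complex, fell by 3.40 ± 0.35 (adjusted p = 9.3e-07), Cenpa, the histone of centromeres, by 2.46 ± 0.23 (adjusted p = 2.9e-07), Cks1b, a cyclin-dependent kinase subunit, by 2.80 ± 0.27 (adjusted p = 6e-07), and Troap, a spindle-associated protein, by 4.61 ± 0.66 (adjusted p = 6.4e-05). Mki67, which encodes the proliferation marker Ki-67 (chromosome 7, 135689784 to 135716361), stood at 41.6, 23.3, 47.3, 39.2 and 14.7 CPM in vehicle and at 4.65, 2.85, 8.47 and 4.13 CPM at 3 d. Its vehicle values were widely spread, with replicate 5 lowest, and all were above 3 d (-2.74 ± 0.48, adjusted p = 0.00052). At 18 h Mki67 was at 0.23 against the same vehicle libraries (adjusted p = 0.63), and the direct difference between the times was -2.97 ± 0.48 (adjusted p = 0.00039).

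Promoters of 3 of these genes are shown because lower members of the mitosis list often held the cell cycle homology region TTTGAA and the CCAAT box, and some lower members of the replication list an E2F site (TTTCCCGC or TTTGGCGC), elements known from genes of the dividing cell. They were searched on both strands in RefSeq windows of GRCm38.p6 from 250 bases before to 50 bases after the start, and capitals mark the matches. The windows are chr9:70421505-70421804 on the minus strand for Ccnb2, chr7:80294201-80294500 on the plus strand for Prc1 and chr8:75109259-75109558 on the plus strand for Mcm5. Capitals are the cell cycle homology region and the CCAAT box in Ccnb2 and Prc1, and an E2F site on the opposite strand and the CCAAT box in Mcm5.
Ccnb2: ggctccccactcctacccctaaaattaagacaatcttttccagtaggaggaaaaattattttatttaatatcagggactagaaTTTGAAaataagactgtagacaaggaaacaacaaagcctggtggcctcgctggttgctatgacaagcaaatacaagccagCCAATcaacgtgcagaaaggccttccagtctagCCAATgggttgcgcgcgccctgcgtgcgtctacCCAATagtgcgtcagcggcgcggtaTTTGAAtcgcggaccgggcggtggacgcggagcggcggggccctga
Prc1: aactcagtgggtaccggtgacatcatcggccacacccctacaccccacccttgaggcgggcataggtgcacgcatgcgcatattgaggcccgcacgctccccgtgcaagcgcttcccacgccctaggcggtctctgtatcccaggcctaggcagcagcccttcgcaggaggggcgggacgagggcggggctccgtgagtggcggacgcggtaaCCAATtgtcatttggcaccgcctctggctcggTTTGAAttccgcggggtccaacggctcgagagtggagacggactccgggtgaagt
Mcm5: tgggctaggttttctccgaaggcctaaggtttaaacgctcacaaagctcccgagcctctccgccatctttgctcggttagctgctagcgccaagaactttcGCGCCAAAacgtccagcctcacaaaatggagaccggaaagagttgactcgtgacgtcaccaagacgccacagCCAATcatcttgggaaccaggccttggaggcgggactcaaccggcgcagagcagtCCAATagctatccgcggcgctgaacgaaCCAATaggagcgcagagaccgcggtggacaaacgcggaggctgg
Of 35 lower mitosis genes 29 had a window, 30 windows in all. The cell cycle homology region was in 21 of them (70.0%, against 17.9% of all 32817 windows) and the CCAAT box in 24 (80.0%, against 37.4%). Of 27 windows of 23 lower replication genes, 4 held the E2F site TTTCCCGC (14.8%, against 1.07%) and 4 the site TTTGGCGC (14.8%, against 0.515%), and 17 held a CCAAT box (63.0%). The cell cycle homology region was in 2 of those 27 (7.41%). Of 21 windows of 13 higher glucocorticoid-induced genes, 1 held the full glucocorticoid response element (4.76%, against 0.00914% of all windows, which is 3 windows) and 5 its shorter core AGAACA (23.8%, against 19.0%). The full element contains the core, so these counts overlap. Windows of list members not called were not searched as a group, so the shares describe the lists and cannot be tied to the response.

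Genes that set exit from or entry into the cycle moved both ways, with 8 of 21 tested lower and 7 higher (median -0.21). Cdkn1b, the cyclin-dependent kinase inhibitor p27 of resting cells (chromosome 6, 134920401 to 134925513), stood at 6.09, 6.67, 15.2, 4.97 and 3.08 CPM in vehicle and at 42.5, 34.1, 38.1 and 18.6 CPM at 3 d. The groups were apart but close at vehicle replicate 3 and the 3 d replicate 4 (2.14 ± 0.35, adjusted p = 0.00018). The E2F family members E2f2 and E2f8, which act in S phase, fell by 2.42 ± 0.33 (adjusted p = 2.5e-05) and 4.83 ± 0.59 (adjusted p = 6.7e-06), and Cdkn3, a phosphatase that peaks in dividing cells, by 2.96 ± 0.51 (adjusted p = 0.00031).

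Part of the genes of energy metabolism were lower at 3 d. Of 61 tested nuclear genes of oxidative phosphorylation 19 fell, 1 rose and the median was -0.32 (32.8% called, against 25.9% of all genes). Atp5g3, a subunit of the membrane rotor of ATP synthase (chromosome 2, 73908447 to 73911326), stood at 2845, 3287, 1852, 3109 and 3078 CPM in vehicle and at 959, 983, 773 and 1391 CPM at 3 d. Again the lowest vehicle library was replicate 3, above all 3 d libraries (-1.46 ± 0.21, adjusted p = 4.8e-05). Uqcrq and Cyc1 of respiratory complex III fell by 1.08 ± 0.21 (adjusted p = 0.0011) and 0.85 ± 0.16 (adjusted p = 0.00068), and Ndufv2 of complex I by 0.91 ± 0.17 (adjusted p = 0.00052). The number of lower members was 14 without the 3 d replicate 2 and 26 in the fit of the 9 libraries alone. The number of higher members was 6 without vehicle replicate 3. The higher member was Ndufab1, named here after its value was seen (1.30 ± 0.31, adjusted p = 0.0053). Of 15 tested glycolysis genes 6 fell and 1 rose (median -0.61). Ldha, lactate dehydrogenase (chromosome 7, 46841475 to 46855627), went from 893, 1082, 683, 1184 and 1096 CPM to 450.4, 449.5, 362 and 416 CPM, with every vehicle library above every 3 d library (-1.23 ± 0.19, adjusted p = 7.1e-05). Tpi1 and Pkm, enzymes of the same pathway, fell by 1.17 ± 0.22 (adjusted p = 0.00072) and 0.78 ± 0.15 (adjusted p = 0.00085). The glucose transporter gene Slc2a1 rose by 0.85 ± 0.21 (adjusted p = 0.0064). Without vehicle replicate 3, 2 glycolysis genes were higher.

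Of 17 tested genes of sterol and lipid handling 3 rose and 1 fell (23.5% called, against 25.9% of all genes). The cholesterol export pumps Abca1 (1.75 ± 0.39, adjusted p = 0.0024) and Abcg1 (1.39 ± 0.22, adjusted p = 0.00013) were higher, Abca1 with overlapping libraries. Abcg1 (chromosome 17, 31057675 to 31117988) stood at 38.6, 36.7, 34.1, 19.3 and 21.6 CPM in vehicle and 74.4, 91.0, 75.4 and 75.1 CPM at 3 d, with no overlap. In cholesterol synthesis Sc5d was higher (1.02 ± 0.24, adjusted p = 0.0034) and Fdps lower (-0.81 ± 0.22, adjusted p = 0.0099), and 2 members were lower without vehicle replicate 3 and 3 in the fit of the 9 libraries alone. Of 69 tested ribosomal protein genes 11 rose, 5 fell and 53 were not called, with a median of -0.01. Rps6 (chromosome 4, 86854660 to 86857412) stood at 331, 276, 1072, 390.3 and 400.1 CPM in vehicle and at 1728, 1247, 1514 and 1354 CPM at 3 d. The value of vehicle replicate 3 lay between the other vehicle libraries and 3 d (1.56 ± 0.31, adjusted p = 0.0019). The same library was the highest vehicle library for Rpl13 (1.37 ± 0.21, adjusted p = 0.00011), Rpl19 (0.76 ± 0.16, adjusted p = 0.0016) and Rps27a (0.81 ± 0.20, adjusted p = 0.0064), whose groups overlapped. Processed copies of these genes can share their reads. The number of lower ribosomal protein genes was 2 without the 3 d replicates 2 or 3, and 8 in the fit of the 9 libraries alone. Of 35 ribosome biogenesis genes 4 fell, among them Nhp2 (-0.90 ± 0.23, adjusted p = 0.0068) and Gar1 (-0.71 ± 0.20, adjusted p = 0.011) of the particle that modifies ribosomal RNA, and the RNA polymerase subunit Polr1c (-0.58 ± 0.15, adjusted p = 0.0073). The higher one was Wdr43 (0.84 ± 0.23, adjusted p = 0.011), a call lost without the 3 d replicate 3 (adjusted p = 0.056), while 2 members were higher without vehicle replicate 3 or the 3 d replicates 2 or 4.

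Trafficking genes rose in 4 of 19 tested and fell in 2 (median 0.05). Cxcr4, the receptor for the chemokine CXCL12 that guides T cells in thymus and marrow (chromosome 1, 128588199 to 128592293), stood at 21.8, 24.4, 29.5, 17.1 and 24.7 CPM in vehicle and at 161, 191, 296 and 176 CPM at 3 d. The 3 d replicate 3 was highest and all 3 d libraries were several times above vehicle (3.13 ± 0.25, adjusted p = 5.5e-08). Itgb2, the shared subunit of leukocyte integrins, fell by 0.71 ± 0.18 (adjusted p = 0.007). The other lower member was S1pr4, a sphingosine 1-phosphate receptor named here after its value was seen (-0.53 ± 0.20, adjusted p = 0.047), a call lost without any 1 of the 9 libraries but vehicle replicate 3. Ccr10, a chemokine receptor of skin and mucosal lymphocytes (chromosome 11, 101172997 to 101175443), was not on the list but among the largest falls, from 112, 96.7, 88.5, 94.9 and 116 CPM to 3.32, 0.948, 3.39 and 4.13 CPM. The vehicle libraries were within a narrow band and the 3 d libraries at a few counts (-5.01 ± 0.59, adjusted p = 3.1e-05). Smtn, a cytoskeletal protein gene (-4.53 ± 0.44, adjusted p = 9.3e-07), and Cntnap1, a cell adhesion gene known from myelinated axons (-4.87 ± 0.59, adjusted p = 2.2e-05), fell as far. Cntnap1 (chromosome 11, 101170523 to 101190724, plus strand) spans Ccr10, which lies on the minus strand. The handling of strand was not given, so Ccr10 and Cntnap1 may share reads and their falls cannot be set apart. Other large rises were Maff, a small basic leucine zipper factor (2.59 ± 0.46, adjusted p = 0.0012), Gpc1, a heparan sulfate proteoglycan (2.44 ± 0.36, adjusted p = 0.00012), and Sytl3, which acts in vesicle transport (2.35 ± 0.32, adjusted p = 4.5e-05). Trnp1, a nuclear protein gene (3.39 ± 0.81, adjusted p = 0.0081), and Ly6c1, a surface protein gene with the near-identical neighbour Ly6c2 (3.24 ± 0.38, adjusted p = 3.3e-06), rose from a few CPM in vehicle.

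Markers of CD4+CD8+ thymocytes, the cells dexamethasone depletes, were present in vehicle and mostly lower at 3 d. Of 14 tested genes of this list 6 fell, 1 rose (Tcf12, whose call was lost without the 3 d replicate 1) and the median was -1.31. The fold change was above 0 for 4 members and below 0 for 10. Beside Tcf12, group means were higher at 3 d for Satb1 (25.64 CPM in vehicle and 33.76 CPM at 3 d), Themis (10.05 and 11.87 CPM) and Rmnd5a (20.43 and 21.16 CPM). None of these was called, and they are named here after their values were seen. The summed level of the list was 1210 to 1930 CPM in vehicle and 512 to 699 CPM at 3 d. The largest part of that sum was Nrgn, named here after its value was seen (714 to 1210 CPM in vehicle, 178 to 347 CPM at 3 d). Next in vehicle came Cd4, which the NKT2 list also holds (163 to 332 CPM, and 91.0 to 105 CPM at 3 d). Dntt, the polymerase that adds bases at receptor gene joints (chromosome 19, 41029275 to 41059525), stood at 14.2, 31.1, 12.2, 37.5 and 31.6 CPM in vehicle and at 0.664, 0, 0.847 and 0.689 CPM at 3 d, at most 1 count in a library (-5.24 ± 0.87, adjusted p = 4e-04). Endou, an endoribonuclease gene used as a marker of that stage, fell by 6.06 ± 0.83 (adjusted p = 3e-05) and Aqp11, a water channel, by 2.20 ± 0.35 (adjusted p = 0.00012). Rag1, the recombinase subunit of these cells, was not tested: it held 1.01, 1.11, 5.08, 4.97 and 6.94 CPM in vehicle and 0 in every 3 d library, where 3 counts would be 1.99 to 2.84 CPM, and Ptcra and Cd24a were also at 0 in every 3 d library. Cd8b1 (chromosome 6, 71322788 to 71337494), with 31.5, 44.5, 26.9, 71.2 and 60.1 CPM in vehicle and 21.3, 12.3, 11.0 and 12.4 CPM at 3 d, was below vehicle in all 3 d libraries. It was not called in the shared fit (-1.68 ± 1.46, adjusted p = 0.42) and was called in the fit of the 9 libraries alone (-1.67 ± 0.31, adjusted p = 0.00046). In bulk samples fewer cells of a type and less RNA per cell cannot be told apart. Cell cycle genes and lineage factors such as Id3, Tox and Sox4 were lower at 3 d, as most of these markers were. The part of the markers in those falls was not tested. Of 16 tested genes of conventional CD4 or CD8 T cells 2 rose and 2 fell (median -0.38), with 4 higher without vehicle replicate 3 and 6 lower in the fit of the 9 libraries alone. The lower ones in the shared fit were Igfbp4, which binds insulin-like growth factors (-1.59 ± 0.32, adjusted p = 0.0019), and Nsg2, an endosomal protein gene (-1.28 ± 0.33, adjusted p = 0.0093).

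Some macrophage genes were higher at 3 d, and the list differed widely between the 3 d libraries. Of 17 tested 5 rose and none fell (median 0.89), and 9 rose in the fit of the 9 libraries alone. The fold change was above 0 for 14 members and below 0 for 3. Group means were lower at 3 d for Fcer1g (289.3 CPM in vehicle and 220.6 CPM at 3 d), Cst3 (418.2 and 380.1 CPM) and Axl (33.49 and 22.98 CPM). None of these was called. Apoc1 and Pltp, described below, are not on the list. The summed level of the list was 1613 to 2723 CPM in vehicle and 9223, 6225, 2966 and 4143 CPM in the 3 d replicates 1 to 4. Apoe, a lipid carrier protein made in quantity by macrophages (chromosome 7, 19696109 to 19699188), stood at 369, 467, 330.5, 674 and 442 CPM in vehicle and at 5368, 3860, 1365 and 1910 CPM at 3 d. The 3 d replicates 1 and 2 held the most, and even replicate 3 held more than every vehicle library (2.77 ± 0.46, adjusted p = 0.00074). Without Apoe the list summed to 1282 to 2049 CPM in vehicle and to 3855, 2365, 1601 and 2233 CPM at 3 d, so the groups overlapped at replicate 3. The 3 d replicate 1 was the highest 3 d library for 16 of the 17 tested members, and for 20.2% of all genes tested. Apoc1, another apolipoprotein, whose gene neighbours Apoe (chromosome 7, 19689481 to 19692660), went from 11.2, 23.3, 5.08, 20.4 and 17.7 CPM to 458, 186, 91.5 and 123 CPM (3.86 ± 0.61, adjusted p = 0.00061). Both genes had the same order of the 3 d libraries, with replicate 1 highest, then 2, 4 and 3. Pltp, a phospholipid transfer protein, rose by 2.42 ± 0.48 (adjusted p = 0.0019), again with the 3 d replicate 1 highest at 107 CPM and replicate 3 lowest at 14.4 CPM. The lysosomal protease Ctss rose by 0.84 ± 0.17 (adjusted p = 0.0013), the heme-degrading Hmox1 by 2.07 ± 0.58 (adjusted p = 0.016) and the adhesion molecule Vcam1 by 2.36 ± 0.64 (adjusted p = 0.012). Without the 3 d replicate 1 the calls of Hmox1 (1.40, adjusted p = 0.088) and Vcam1 (1.69, adjusted p = 0.085) were lost and 2 macrophage genes were called higher, and without vehicle replicate 3, 1 macrophage gene was lower. Of the 24 macrophage markers 22 had counts listed, and none of those was at 0 in all libraries of either group. Mertk and Spic had no counts listed. The part of these markers in the rises of Apoe, Apoc1, Pltp and the sterol pumps was not tested.

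**Figure D4:**
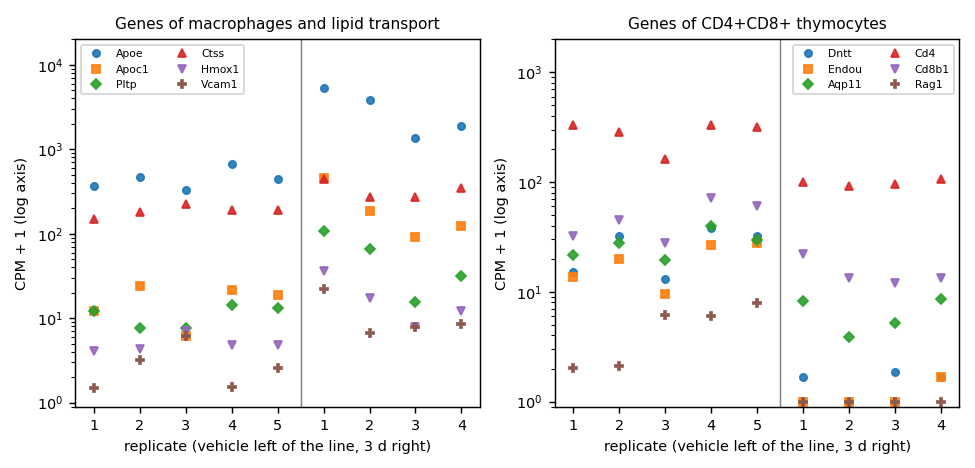
CPM plus 1 on a log axis in each vehicle library (left of the line) and each 3 d library (right of the line) for 6 genes of macrophages and lipid transport and for 6 genes of CD4+CD8+ thymocytes. Apoe, Apoc1 and Pltp are highest in the 3 d replicate 1, and Rag1 is at 0 in all 4 libraries at 3 d.

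Markers of further cell types were tested in small numbers. Of 7 tested regulatory T cell genes Ctla4 and Tnfrsf18 rose and Capg fell, 3 genes that other lists also hold. The dendritic cell list had 1 of 9 tested genes higher, Bst2 (2 without the 3 d replicate 4), the NK cell and innate lymphoid list 1 of 4, Gzma, and the gamma delta T cell list 1 of 3 lower, Cd163l1. In the fit of the 9 libraries alone 2 gamma delta genes and 1 dendritic cell gene were lower. The shares called in the shared fit were 11.1%, 25.0% and 33.3% of these 3 lists, in that order, against 25.9% of all genes. Counts this small are not results about those lists. Of the B cell list 1 gene passed the filter on low counts and was not called. Of the granulocyte and the erythroid and platelet lists none passed it. The tested gene of the stromal list, Pecam1 of endothelium and some leukocytes, was lower (-0.67 ± 0.21, adjusted p = 0.025), a call lost without vehicle replicate 4 (adjusted p = 0.055) or the 3 d replicate 3 (adjusted p = 0.098). Heat shock genes, a sign of handling, had 1 of 11 tested higher, the chaperone Dnajb1 (1.04 ± 0.19, adjusted p = 0.00059). That is 9.09% of the list, below the 25.9% of all genes, and not a result about the list. Its median was 0.52 with no member below 0, and 2 were higher without vehicle replicate 3 or in the fit of the 9 libraries alone.

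The late response differed from the early one for part of these genes. Between 3 d and 18 h 931 of 7965 genes differed (11.7%), and against the vehicle libraries that both share 34.3% were called at 18 h. Ccl5 was at -2.69 at 18 h and 1.86 ± 0.28 at 3 d, and the direct difference of 3 d over 18 h was 4.54 ± 0.31 (adjusted p = 6.7e-08). Ccl5 averaged 183 ± 114 CPM at 18 h, below all vehicle libraries, and 4251 ± 378 CPM at 3 d, above them. The opposite order held for Tapbp (0.42 and -0.70 ± 0.14), Nsg2 (1.50 and -1.28 ± 0.33), Gbp8 (0.44 and -0.44 ± 0.16), Gbp9 (0.73 and -0.77 ± 0.22) and Pecam1 (0.57 and -0.67 ± 0.21), each higher at 18 h and lower at 3 d. In all, 19 genes were called in opposite directions at the times with a called difference between them. Vehicle libraries were taken at 3 d alone, so the 18 h values compare libraries of unequal times after injection.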

How the data were processed

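The authors deposited a table of raw counts per gene for each of the 14 libraries, together with the log2 fold changes and adjusted p-values of their own comparisons, per the file headers. The submitters' processing notes name bcl2fastq, cutadapt, STAR 2.5.2b, HTSeq, DESeq2 and the build mm10, with no role or order. The handling of strand and of molecular identifiers was not given in the sources used here; reads of overlapping or antisense genes and repeated molecules cannot be set apart. Of 10320 names 17 had been turned into dates, with 0.102 to 0.147% of the counts, and were left out.

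Counts were tested with edgeR 4.0.16 in R 4.3.3: filterByExpr by group, TMM scaling, a robust quasi-likelihood fit of all 14 libraries in 3 groups with no covariate, two-sided tests and Benjamini-Hochberg adjustment over all 7965 genes tested, called at an adjusted p below 0.05. Standard errors are the log2 fold change divided by the square root of F. Alternatives used limma 3.58.1 and DESeq2 1.42.0, other scalings, filters and thresholds, the 9 libraries alone and each library left out in turn. The procedure was tested on simulated data. The samples' group comes from the labels. Replicates of the 3 d group are numbered as in the sample titles.

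Members, gene lists and the rules below were chosen with earlier results of these data known. Genes were named if they were among the 15 largest rises or falls of called genes whose higher group averaged 20 CPM or more and whose groups do not overlap, among up to 4 called members of each of 43 lists with the smallest adjusted p, or among 18 genes always named; this gave 146 genes, and others are said to be named after their values were seen. Some genes that the rule names are not reported here. Coordinates are those of the GENCODE annotation of mm10, and promoter windows those of RefSeq on GRCm38.p6, which held 104 of the 146. No order of levels between genes is drawn from the counts.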

Additional observations from a re-analysis of the deposited data

Results flagged for a closer look

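Of 286 groups of libraries tested for a stray library, over the genes reported here and both groups, 27 held one by Dixon's criterion, and chance gives about 1 in 20 groups. The library singled out in 15 of the 27 cases was vehicle replicate 3. It lay below the other vehicle libraries, toward 3 d, for Id3 (348.8 against 415.7 to 435.6 CPM), Cd4 (163 against 283 to 332 CPM), Uqcrq (695 against 1008 to 1072 CPM), Pkm (790.2 against 1031 to 1105 CPM), Vegfb (59.0 against 86.7 to 97.9 CPM), Fkbp4 (146 against 217 to 244.5 CPM) and Diablo (68.7 against 86.7 to 90.0 CPM), and below them, away from 3 d, for Il4ra (2.54 against 7.18 to 8.48 CPM). It lay above them, toward 3 d, for Gzma (94.6 against 46.3 to 58.0 CPM), Txk (74.8 against 46.4 to 50.2 CPM), Tapbpl (82.9 against 48.9 to 57.0 CPM), Hmox1 (6.10 against 3.05 to 3.86 CPM), Rps27a (2266 against 917 to 1265 CPM), Rpl13 (2509 against 1150.0 to 1397 CPM) and Rps6 (1072 against 276 to 400.1 CPM).

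Other vehicle libraries stood apart for Ccl5 (replicate 5 at 1483 CPM, against 1077 to 1131 CPM) and for Areg (replicate 2 at 1.11 CPM, the others at 0). Among the 3 d libraries, replicate 1 stood apart for Vcam1 (21.3 against 5.69 to 7.58 CPM), Cd8b1 (21.3 against 11.0 to 12.4 CPM), Cks1b (14.6 against 17.8 to 18.0 CPM) and Hist1h2bk (1.33 CPM against 0). Replicate 2 stood apart for Abcg1 (91.0 against 74.4 to 75.4 CPM) and Areg (0.948 CPM against 0), and replicate 3 for Slfn5 (72.0 against 13.3 to 15.9 CPM). Replicate 4 stood apart for Diablo (73.0 against 56.0 to 57.6 CPM) and, with 1 count each, for Endou and Hist1h3i (0.689 CPM against 0).

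The effect at 3 d differed from that at 18 h, in the direct test between the times, for 6 named genes called in opposite directions. The difference was 4.54 for Ccl5 (-2.69 at 18 h and 1.86 at 3 d), -2.78 for Nsg2 (1.50 and -1.28), -1.51 for Gbp9 (0.73 and -0.77), -1.24 for Pecam1 (0.57 and -0.67), -1.12 for Tapbp (0.42 and -0.70) and -0.87 for Gbp8 (0.44 and -0.44), all on the log2 scale.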

How the results depend on the processing

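Over 24 refits, 121 of 134 called named genes kept their call and direction in every refit, 13 lost the call in at least 1, and 6 that were not called gained it. The number of genes called was 2064, and 2224 with DESeq2, 3139 with limma-voom and quality weights (1590 higher), 2182 with no filter and 1658 at 20 CPM or more. It was 2349 in the 9 libraries alone. At an adjusted p below 0.01 it was 1037 (433 higher, 604 lower), and with a 2-fold change 916 (446 higher, 470 lower). Scaling by total counts alone gave 2076, of which 54.0% were higher, against 46.7%, and moved the median of all genes to 0.10. Leaving out each library in turn gave 1488 to 2587 calls, the most without vehicle replicate 3, and 1705 to 2766 genes whose libraries do not overlap. Il4 reversed with limma-voom (0.05) and, among the fits without a library (-0.301 to 0.01), without vehicle replicate 3; the median of the type 2 list, set by few genes, reversed in the same fits (0.05, and -0.585 to 0.01), and that of the cyclin and inhibitor list with a filter at 20 CPM (0.322). The cause was not tested, except that the filter tests fewer genes. With the replicate block by title number 1721 genes were called (818 higher, 903 lower), and by the number in the description 1790 (839 and 951). Same-numbered samples correlated at -0.169 to 0.153 in their deviations, not each best with its own number, so the numbers are not taken to pair the samples. With 1 count worth 0.507 to 1.11 CPM, Rag1 and Areg did not pass the filter on low counts and were not tested in the main fit. In the authors' deposited table Rag1 was lower at 3 d (their adjusted p = 0.0027) and Areg was not called (their adjusted p = 0.91).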

Other observations

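Genes of serine, glycine and one-carbon metabolism, which feed nucleotide synthesis, were lower at 3 d. The group was chosen after its values were seen. Of 14 tested genes 10 fell, 4 were not called and none rose, with a median of -0.83, and their summed level was 1176 to 1557 CPM in vehicle and 698 to 825 CPM at 3 d. Psat1, the aminotransferase of serine synthesis, stood at 175, 152, 86.4, 171 and 132 CPM in vehicle and 25.9, 11.4, 20.3 and 31.0 CPM at 3 d (-2.66 ± 0.38, adjusted p = 0.00014). Shmt2, which moves a carbon from serine to folate in mitochondria, went from 320.2, 340.1, 219, 369 and 372 CPM to 141, 117, 98.2 and 136 CPM (-1.39 ± 0.22, adjusted p = 0.00014). The groups were apart for both, with vehicle replicate 3 the lowest vehicle library. Shmt1, its cytosolic counterpart, fell by 2.14 ± 0.36 (adjusted p = 0.00023), Gcat, of threonine breakdown, by 2.33 ± 0.44 (adjusted p = 0.00074) and Paics, of purine synthesis, by 1.26 ± 0.19 (adjusted p = 6.7e-05). The purine and pyrimidine genes Gart (0.03 ± 0.22, adjusted p = 0.94), Cad (-0.19 ± 0.15, adjusted p = 0.38) and Impdh2 (-0.25 ± 0.17, adjusted p = 0.28) were not called.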
